A study of Mus musculus with 3 samples.

Results

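*Scx* encodes scleraxis, a basic helix-loop-helix (bHLH) transcription factor, and ScxGFP is the row of a reporter transgene in which green fluorescent protein is placed under *Scx* regulatory sequence. Both rows were taken by name from the 3 single-cell count tables of the series, so that 2 of 27755 gene rows were followed in the D10 culture, 2 of 27755 in the E14.5 tail and 2 of 25936 in D6 PM. Scleraxis binds E-box DNA as a partner of the widely expressed E proteins, and Id proteins hold E proteins away from such partners. Cells that will form tendon express *Scx* before other known tendon markers. Scleraxis is also active where tendon meets bone and in the fibrocartilage of annulus fibrosus and meniscus. It acts on matrix genes of tendon, among them tenomodulin (*Tnmd*) and type I collagen. ScxGFP fluorescence is the usual readout of tendon cells in sorting and imaging, whereas the tables give the transcript of the transgene in single cells beside that of the gene it reports.

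The study asked how mouse embryonic stem cells (mESCs) can be guided to tendon and fibrocartilage cells, and how those cells compare with cells of the embryo. D6 PM was paraxial mesoderm from mESCs, made as embryoid bodies with the BMP inhibitor LDN-193189 and then with the Wnt agonist CHIR together with LDN-193189. The D10 culture was D6 PM grown for 4 more days with TGFβ1, the hedgehog agonist SAG and FGF2, taken as a whole culture after dead cell depletion. The E14.5 tail was the tail of mouse embryos from ScxGFP dams on C57BL6, with embryos of either sex used. The mESCs were derived from blastocysts of ScxGFP mice, so that all groups come from the reporter strain. Which of the study's lines gave the single-cell libraries, how many embryos gave the tail cells and how many of these carried the transgene is not given in the sources used here. Every group was 1 library, so no p-value was computed, all values describe these libraries, and all intervals are exact 95% intervals that cover counting error only. Which stretch of the transgene transcript the ScxGFP row counts, and whether transgene reads that carry *Scx* sequence went to the *Scx* row, is not given either. Ratios of the 2 rows are therefore compared between cells and not read as transcript numbers.

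Depth was counted in UMIs (unique molecular identifiers, each standing for a captured RNA molecule). The middle cell had 5622 UMIs among the 7821 cells of the D10 culture, 13512 among the 2052 of the tail and 8171 among the 5954 of D6 PM. Libraries shared 3 to 10 barcodes in pairs. Cells are grouped below by the cluster code deposited with each cell. By markers, code 1 was tendon-like in culture and tail, code 2 held proliferation genes and code 4 was cartilage-like. Of 10 tendon genes, 9 in code 1 of the culture and 8 in that of the tail had at least 20 CPM and 2-fold the level of the other cells. Among the 10 leading genes by fold of code 1 were 2 of them in the culture and 0 in the tail. Of 4 smooth muscle genes, 3 passed the same rule in code 1 of either library. Code 3 of the culture was pluripotent-like, code 8 was endoderm-like and code 11 endothelium-like. Code 7 of either library was shallow, with medians of 1424 UMIs in the culture and 1881 in the tail, and stays unnamed. Codes 5, 6 and 9 of the culture mixed markers of several types and stay unnamed too, led by sarcomere, haemoglobin and macrophage genes. In the tail, code 5 was muscle-like, 6 and 12 erythroid-like, 8 skin-epithelium-like, 10 nerve-like and 11 endothelium-like. In D6 PM, code 1 was endoderm-like, 2 pluripotent-like, 3 proliferating and 4 somite-like, and code 5 was led by *Lyz2* and *Col1a1*.

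*Scx* was 69.9-fold higher in the D10 culture than in D6 PM, and ScxGFP 48.7-fold higher. Over all cells, *Scx* stood at 1476 CPM (UMIs of the gene per 1000000 UMIs, summed over cells; interval 1466 to 1487) in the culture, 958 CPM (948 to 969) in the tail and 21.1 CPM (19.9 to 22.4) in D6 PM. ScxGFP stood at 32.8 CPM (31.3 to 34.4), 29.99 CPM (28.1 to 32.0) and 0.675 CPM (0.470 to 0.939) in the same order, from 1754, 940 and 35 UMIs. The tail had 0.649 times the *Scx* level of the culture (0.641 to 0.658) but 0.913 times its ScxGFP level (0.843 to 0.989). The culture to D6 PM ratio had an interval of 65.8 to 74.2 for *Scx* and 34.9 to 70.1 for ScxGFP.

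Among 27 cluster codes with at least 50 cells, *Scx* was highest in proliferating code 2 of the culture at 2699 CPM (2668 to 2730). Code 1 of the culture followed at 2410 CPM, then its shallow code 7 at 2388 CPM, and the intervals of codes 1 and 7 overlap. Cartilage-like code 4 came next in both libraries, with 1905 CPM in the tail and 1852 CPM in the culture, whose intervals overlap. Code 2 of the tail stood at 1664 CPM and code 1 of the tail at 1472 CPM. A single cell held 1106 of the 7205 *Scx* UMIs of code 2, and without it code 2 was at 1421 CPM (1385 to 1457). Code 1 was at 1398 CPM (1375 to 1421) without its own top cell, which held 768 of 14899 *Scx* UMIs. With both cells left out the intervals of these codes overlap. In the culture the cartilage-like cells thus held 0.768 times the *Scx* level of the tendon-like cells (0.748 to 0.789), whereas in the tail they held 1.29 times that level (1.26 to 1.33).

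Lower levels were found in the other codes, several of them carried by 1 cell. Shallow code 7 of the tail was at 834 CPM, yet 1 cell held 110 of its 186 *Scx* UMIs, and without it the code was at 349 CPM (275 to 437). Endothelium-like code 11 of the culture was at 640 CPM (556 to 732, 58 cells) and haemoglobin-led code 6 of the culture at 355 CPM. Nerve-like code 10 of the tail was at 238 CPM, and at 88.9 CPM without a cell that held 253 of its 402 *Scx* UMIs. Likewise codes 8 and 9 of the tail were at 136 and 90.1 CPM, and at 40.2 and 41.9 CPM without the cell with the most *Scx* UMIs, code 6 of the tail at 95.6 and 51.7 CPM, and code 9 of the culture at 178 and 105 CPM. These codes are therefore not ranked among each other. Pluripotent-like code 3 of the culture, in which no *Scx* would be looked for, was at 70.7 CPM (66.0 to 75.7), and erythroid-like code 12 of the tail at 13.2 CPM (7.21 to 22.1). In D6 PM, somite-like code 4 led at 50.2 CPM (44.7 to 56.1), 1.87 times the level of endoderm-like code 1 (1.62 to 2.16). The 3 lowest levels of all codes were those of D6 PM codes 5, 3 and 6, at 5.43, 2.36 and 0.528 CPM. Code 5 of D6 PM carried matrix genes, yet somite-like code 4 held 9.25 times its *Scx* level (6.41 to 13.8).

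The order of ScxGFP was close to that of *Scx*, with wider intervals. ScxGFP was highest in cartilage-like code 4 of the tail at 65.3 CPM (56.9 to 74.6), then in code 2 of the culture at 59.5 CPM and code 1 of the culture at 54.4 CPM. Shallow code 7 of the tail came next at 49.3 CPM (24.6 to 88.3), from 11 ScxGFP UMIs, of which 5 were left without the cell with the most *Scx* UMIs. Code 2 of the tail was at 48.5 CPM, code 1 of the tail at 46.1 CPM and code 4 of the culture at 41.5 CPM, and each neighboring pair in the order overlapped. In cartilage-like cells *Scx* was level between tail and culture, at a ratio of 1.03 (0.993 to 1.07), while ScxGFP was 1.57 times higher in the tail (1.27 to 1.96). In D6 PM the transgene was counted in the somite-like, pluripotent-like and endoderm-like codes, at 1.48, 1.07 and 0.715 CPM. It had no UMI in D6 PM codes 3, 5 and 6, in tail codes 11 and 12 or in culture code 9. Against the depth of each of these codes, 3 UMIs would be 0.393 CPM in D6 PM code 3 and 6.83 CPM in culture code 9.

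**Figure D1:**
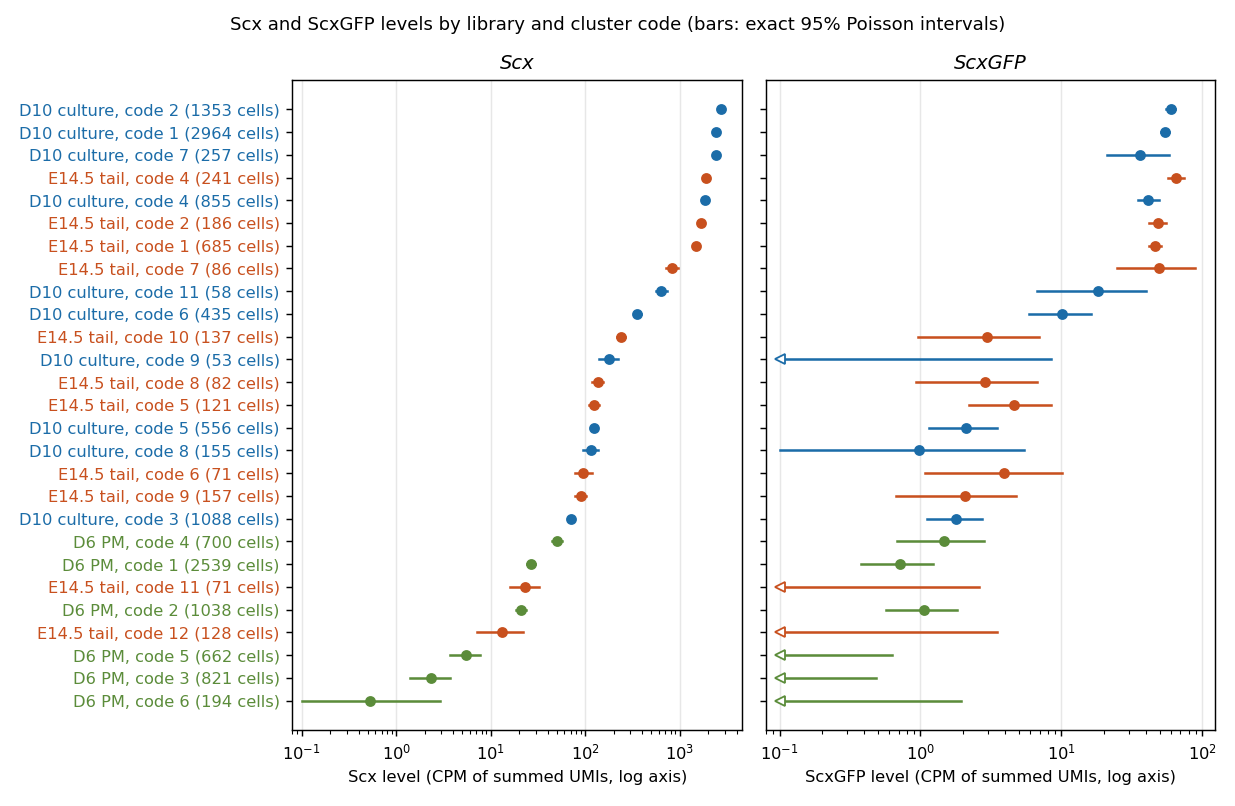
Level of *Scx* (left) and ScxGFP (right) in CPM of summed UMIs on log axes, by library and cluster code in the order of the *Scx* level, for codes with at least 50 cells. Points are levels, lines exact 95% Poisson intervals, and open triangles at the left edge mark codes with no ScxGFP UMI. Codes 1, 2 and 4 of culture and tail and code 7 of the culture lie at 1472 to 2699 CPM of *Scx*, above code 7 of the tail at 834 CPM, a level that 1 cell carries.

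The share of cells with a UMI was read after a random draw of 3000 UMIs from every cell (thinning), since deeper cells show more genes. A *Scx* UMI was then found in 67.0% of 6664 culture cells (65.9 to 68.1), 28.2% of 1952 tail cells (26.2 to 30.2) and 3.01% of 4948 D6 PM cells (2.55 to 3.53). Without thinning the shares were 71.4%, 41.4% and 5.48%. In code 1, 90.6% of culture cells and 37.9% of tail cells held a *Scx* UMI, in code 2 92.3% and 35.5%, and in code 4 86.6% and 62.5%. As a background, the share was 10.5% in pluripotent-like code 3 of the culture, 4.80% in erythroid-like code 12 of the tail and 0.595% in code 6 of D6 PM, from median depths of 10370, 8392 and 9118 UMIs before thinning. Code 5 of the culture, with 15.1% (12.1 to 18.4), and its code 8, with 16.2% (10.7 to 23.2), had intervals that overlap that of code 3 (8.69 to 12.4). Nerve-like code 10 of the tail held a *Scx* UMI in 9.49% of cells (5.15 to 15.7) and endothelium-like code 11 in 3.03% (0.369 to 10.5). Both intervals overlap that of erythroid-like code 12 (1.78 to 10.2). A ScxGFP UMI was found in 9.05% of thinned culture cells, 5.99% of tail cells and 0.202% of D6 PM cells, against 0.463% in code 3 of the culture and none of 125 cells in code 12 of the tail, where the upper bound of the interval was 2.91%.

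In codes 1 and 2 *Scx* was spread over most culture cells and concentrated in few tail cells, and in code 4 most cells of either library held it. In code 1 of the culture the middle cell held 5 *Scx* UMIs of 3000, the upper quartile was 9 and the highest cell 121. In code 1 of the tail the middle cell held 0, the upper quartile was 2 and the highest cell 127. The variance over the mean, which is near 1 for counts that differ by sampling alone, was 11.04 for code 1 of the culture and 39.0 for that of the tail, 10.5 and 38.6 for code 2, and 9.35 and 13.3 for code 4. More than 10 *Scx* UMIs of 3000 were held by 20.5% of code 1 cells in the culture (18.9 to 22.1) and by 10.8% in the tail (8.53 to 13.3). In code 4 the tail's share was the larger, with 14.98% in the culture (12.3 to 18.0) and 21.3% in the tail (16.3 to 27.0), but these intervals overlap.

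Counted over all UMIs, 765 of 7821 culture cells held 50% of the *Scx* UMIs, whereas 55 of 2052 tail cells and 25 of 5954 D6 PM cells did so. The top 10% of cells held 50.6% of the *Scx* UMIs of the culture and 84.3% of those of the tail. The most *Scx* UMIs in a cell were 295, 1106 and 85 for culture, tail and D6 PM. Cells with over 100 *Scx* UMIs numbered 50 in the culture and 76 in the tail.

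**Figure D2:**
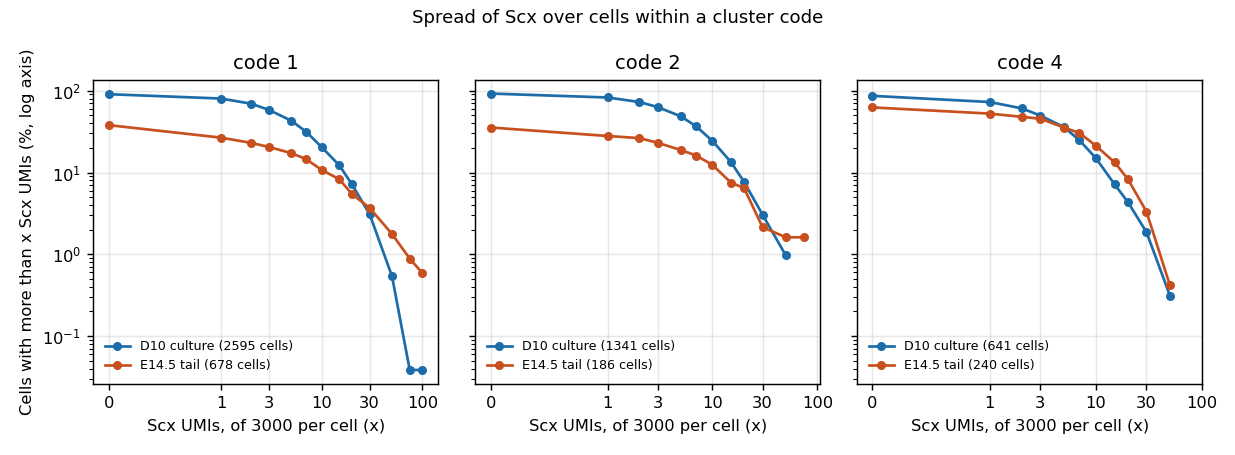
Share of cells (log axis, %) with more than x *Scx* UMIs after thinning to 3000 UMIs per cell, for codes 1, 2 and 4 of the D10 culture and the E14.5 tail. In codes 1 and 2 the tail starts lower, at 37.9% and 35.5% of cells against 90.6% and 92.3%, and reaches further to the right.

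Over all cells the transgene gave fewer UMIs for each *Scx* UMI in the culture than in the tail. There were 2.22 ScxGFP UMIs per 100 *Scx* UMIs in the culture (2.12 to 2.33), 3.13 in the tail (2.93 to 3.34) and 3.19 in D6 PM (2.21 to 4.47). Both rows are summed over the same cells, so that depth cancels. The tail to culture ratio of this quantity was 1.41 (1.30 to 1.53) over all cells, 1.39 (1.24 to 1.56) in code 1, 1.32 (1.12 to 1.55) in code 2 and 1.53 (1.23 to 1.91) in code 4. Within the culture the 3 codes did not stand apart, at 2.26 in code 1, 2.20 in code 2 and 2.24 in code 4, with a code 4 to code 1 ratio of 0.993 (0.823 to 1.19). Within the tail they were at 3.13, 2.91 and 3.43, and the code 4 to code 2 ratio was 1.18 (0.965 to 1.43). Shallow code 7 gave 1.51 in the culture (0.876 to 2.43) and 5.91 in the tail (2.90 to 10.8), from 17 and 11 ScxGFP UMIs.

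In single cells the transgene was mostly seen together with *Scx*. Of thinned culture cells with a ScxGFP UMI, 595 of 603 also held a *Scx* UMI (98.7%, 97.4 to 99.4), and in the tail 110 of 117 did (94.0%, 88.1 to 97.6). In D6 PM 9 of 10 did, and 24 of 30 over all UMIs (80%, 61.4 to 92.3). The reverse was rarer, since 595 of 4466 culture cells (13.3%, 12.3 to 14.4) and 110 of 550 tail cells with a *Scx* UMI (16.7 to 23.6%) held a ScxGFP UMI. Among cells with no *Scx* UMI, a ScxGFP UMI was found in 8 of 2198 in the culture (0.364%, 0.157 to 0.716), 7 of 1402 in the tail (0.499%, 0.201 to 1.03) and 1 of 4799 in D6 PM (0.0208%).

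Within code 1 of the tail, 7.96% of cells held both UMIs (6.04 to 10.3) where the product of both shares was 3.19%, a ratio of 2.50. Code 2 of the tail gave a ratio of 2.66 and code 4 one of 1.56. In the culture the ratios were 1.10 in code 1, 1.08 in code 2 and 1.12 in code 4, and there *Scx* was already found in 86.6 to 92.3% of cells, which bounds the ratio near those values. In code 1 of the culture 13.0% of cells held both (11.8 to 14.4) where the product was 11.9%. Pearson's r of *Scx* and ScxGFP UMIs over thinned cells was 0.52, 0.53 and 0.48 in codes 1, 2 and 4 of the culture (2595, 1341 and 641 cells) and 0.72, 0.49 and 0.55 in those of the tail (678, 186 and 240 cells). Spearman's rho was 0.41, 0.38 and 0.35 in the culture and 0.46, 0.47 and 0.46 in the tail. Both describe cells of 1 library each.

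ScxGFP was higher the more *Scx* UMIs a cell held, in the culture by more than in proportion. Among thinned culture cells of code 1, ScxGFP was at 2.74 CPM (0.332 to 9.91) in cells with no *Scx* UMI, 7.85 CPM with 1 to 2, 16.5 CPM with 3 to 5, 45.1 CPM with 6 to 10 and 215 CPM (193 to 239) with over 10. The value of each bin from 3 to 5 upward lay above the interval of the bin before it. In codes 2 and 4 of the culture the cells with over 10 *Scx* UMIs reached 179 CPM (153 to 208) and 174 CPM (129 to 229). Over codes 1, 2 and 4 together, ScxGFP per 100 *Scx* was 1.23 with 1 to 2 *Scx* UMIs (0.725 to 1.95), 1.38 with 3 to 5, 1.80 with 6 to 10 and 2.92 with over 10 (2.68 to 3.17). In the tail the same 4 bins gave 2.08 (0.562 to 5.42), 5.20 (2.99 to 8.45), 3.06 (1.91 to 4.67) and 2.74 (2.25 to 3.30), with no such order, and in cells with over 10 the tail's value was below the culture's, with overlapping intervals.

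Finer bins of all UMIs per cell were chosen after these values had been seen. The tail cells were deeper, at a median of 15463 against 7697 UMIs for cells with 51 to 100 *Scx* UMIs, so a bin holds different *Scx* levels in each library. Tail to culture ratios of these bins are therefore given only with the processing settings below, and nothing is concluded from them. In the culture ScxGFP per 100 *Scx* went from 1.02 in cells with 3 to 5 *Scx* UMIs (0.742 to 1.38) through 1.26 with 6 to 10, 1.72 with 11 to 20, 2.52 with 21 to 50 and 2.64 with 51 to 100 to 3.32 with over 100 (2.89 to 3.80). In the culture's cells with 1 to 2 it was 1.202 (0.732 to 1.86). In the tail it was 2.28 with 1 to 2 *Scx* UMIs (1.03 to 4.37) and 1.32 with 3 to 5 (0.426 to 3.11, from 5 ScxGFP UMIs). The tail's bins from 6 to 10 upward lay between 2.90 and 3.60, and cells with over 100 gave 3.09 (2.83 to 3.36). All 76 tail cells and 47 of 50 culture cells with over 100 *Scx* UMIs held a ScxGFP UMI.

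As bins and ratio above rest on the same UMIs, the UMIs of every cell were also drawn at random into a first and a second part of like size, with bins from the first and the ratio from the second, again a choice made after seeing the data. The culture then gave 0.910 per 100 *Scx* (0.392 to 1.80) for cells with no *Scx* UMI in the first part, 0.501 (0.280 to 0.828) for cells with 1 to 2, 1.45 for 3 to 5, 1.54 for 6 to 10, 2.30 for 11 to 25 and 2.92 (2.59 to 3.28) for over 25. The tail gave 1.54 (0.315 to 4.56) for cells with no *Scx* UMI in the first part and 2.96 (1.07 to 6.55), 2.49, 2.84, 3.04 and 3.25 (2.93 to 3.61) in the bins from 1 to 2 upward. The ratio of the culture was thus higher in *Scx*-rich cells also where it was read from UMIs that had not set the bins.

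**Figure D3:**
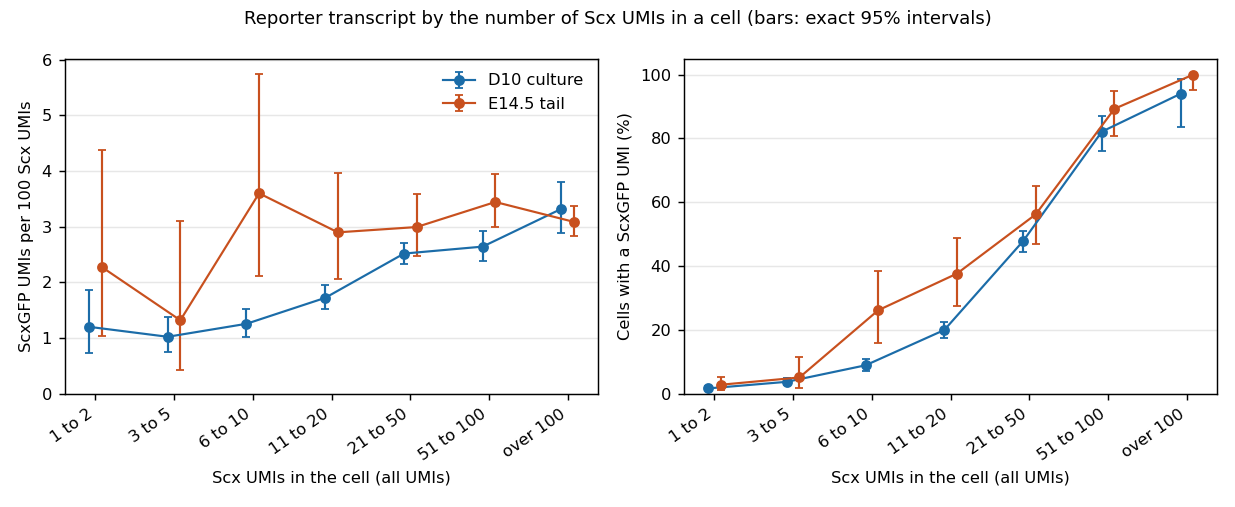
ScxGFP UMIs per 100 *Scx* UMIs (left) and percent of cells with a ScxGFP UMI (right) by the number of *Scx* UMIs in a cell, from all UMIs and all cells of the D10 culture and the E14.5 tail. Bars are exact 95% intervals. On the left the culture lies at 1.202 and 1.02 in the lowest bins and at 3.32 with over 100 *Scx* UMIs, and the tail lies at 2.28 and 1.32 in the lowest bins and between 2.90 and 3.60 from 6 to 10 upward.

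Next, culture cells with and without a ScxGFP UMI were compared within a code over all genes found in at least 10% of either kind. Code 1 gave 340 thinned cells with and 2255 without a ScxGFP UMI, at median depths of 5179 and 5200 UMIs before thinning. *Scx* itself differed most, at 6248 against 1862 CPM, a ratio of 3.36 (3.26 to 3.46). Cells with the reporter held a mean of 18.7 *Scx* UMIs of 3000 and cells without it 5.58. Few other genes differed: of 5282 genes tested in code 1, 50 (0.947%) were at least 1.5-fold higher, *Scx* included, and 77 (1.46%) at least 1.5-fold lower. Without thinning 30 were higher and 18 lower, so that the larger count changed sides. After *Scx*, the 5 largest ratios among genes with at least 100 UMIs included that of osteopontin *Spp1* at 2.10 (1.88 to 2.34), found in 26.8% of cells with and 18.3% of cells without the reporter. The others passed the 10% filter only through the cells with the reporter, in which they were higher, so that their ratios are values alone: *Cdk19* at 2.25, the integrin *Itga4* at 2.12, *Ccdc66* at 1.86 and *Brip1os* at 1.84. The 5 lowest ratios, of *Prss35* at 0.478, *Col8a2* at 0.481, *Foxp2* at 0.513, *Hprt* at 0.525 and *Fer* at 0.525, were likewise of genes that passed only through the cells without the reporter.

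In code 2, with 174 cells with and 1167 without a ScxGFP UMI, *Scx* was at 6347 CPM in cells with and 2115 CPM in cells without the reporter, with an interval of 2.88 to 3.13 for the ratio. There 133 of 5333 genes (2.49%) were at least 1.5-fold higher and 166 (3.11%) at least 1.5-fold lower. *Spp1*, found in 21.8% of cells with and 17.5% of cells without the reporter, again had one of the largest ratios, at 2.39 (2.04 to 2.79).

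Few tendon matrix genes passed the fold in this comparison, as was the case over all genes. The thinned cells of code 1 without a ScxGFP UMI held a median of 4 *Scx* UMIs. A missing ScxGFP UMI thus need not mean that the reporter was silent, and what this does to the ratios was not tested. Of 15 genes of tendon matrix and *Scx* targets, 13 were tested in code 1 and 0 passed 1.5-fold in either direction, where 0.947% and 1.46% of all genes did, with a median log2 ratio of -0.16 against 0.01 over all genes tested. *Col1a1* was at 2506 CPM in cells with and 2808 CPM in cells without a ScxGFP UMI, a ratio of 0.892 (0.856 to 0.930), and fibromodulin *Fmod*, a collagen-binding proteoglycan, had a ratio of 0.978 (0.863 to 1.10). Periostin *Postn* had a ratio of 0.804 (0.768 to 0.842) and thrombospondin *Thbs2* one of 0.711 (0.632 to 0.798). *Tnmd* was found in too few cells to be tested, with 15 UMIs in cells with and 107 in cells without the reporter. In code 2, 0 of 13 were higher and 1 was lower by the same rule, *Thbs2* at 0.647 (0.524 to 0.793). Of 4 Id inhibitors, 3 were tested in code 1 and 4 in code 2, at median log2 ratios of 0.25 and 0.26. In each code 1 of them passed the fold, *Id2*. It was higher in code 1, at 183 against 120 CPM, a ratio of 1.53 (1.29 to 1.79), and in code 2 at 1.79 (1.38 to 2.29). Of 3 E protein partners of *Scx* (*Tcf3*, *Tcf4* and *Tcf12*) 0 passed the fold in either code. Of 8 somite and sclerotome genes 3 were tested in either code and 0 passed the fold. Their median log2 ratio was -0.11 in code 1 and 0.31 in code 2. The somite gene *Meox1* had a ratio of 1.49 (1.26 to 1.75) in code 1 and 1.46 (1.10 to 1.91) in code 2, and does not stand for the list.

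A split by *Scx* itself was added after these values had been seen, and set cells with over 10 *Scx* UMIs of 3000 against cells with 0 to 2. In code 1 it compared 531 with 795 culture cells and 73 with 522 tail cells, with median depths of 5246 and 4953 UMIs for the culture and 13622 and 13532 UMIs for the tail. The cells with 0 to 2 were 795 of 2595 thinned code 1 cells in the culture but 522 of 678 in the tail. The split is therefore not the same contrast in both libraries. At least 1.5-fold differences were met by 3.27% (higher) and 4.12% (lower) of 5286 genes in the culture, and by 10.6% and 12.5% of 5990 genes in the tail. ScxGFP met the 10% filter only through the *Scx*-high cells, so that its ratios are given as values alone. They were 34.2 in the culture (20.5 to 61.8, 343 against 15 UMIs) and 75.1 in the tail (32.6 to 212, 63 against 6 UMIs).

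Several matrix genes stood on opposite sides of 1 in the 2 libraries in this split. Among those found in at least 10% of both *Scx*-high and *Scx*-low cells in both libraries, *Col1a1* had 1.44 in the tail (1.34 to 1.55) and 0.789 in the culture (0.759 to 0.821). *Col1a2* had 1.24 (1.14 to 1.35) and 0.828 (0.790 to 0.868). *Col12a1*, a collagen on the surface of fibrils, had 1.90 (1.58 to 2.27) and 0.662 (0.578 to 0.757), and *Thbs2* had 1.62 (1.07 to 2.37) and 0.524 (0.470 to 0.584). None of these 4 pairs of intervals overlap. The split does not set the same parts of code 1 apart in both libraries, and with 1 library each the difference has no replicate check. *Col3a1* was below 1 in both, at 0.755 in the tail and 0.712 in the culture, and *Bgn* was near 1 in both, at 1.02 and 1.02.

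Other genes entered the comparison only through the kind of cells in which they were higher, so that their ratios are given as values alone. In the tail this held for *Tnmd*, a cell surface glycoprotein of mature tendon, which was at 429 CPM in *Scx*-high and 31.3 CPM in *Scx*-low cells, and found in 26.03% and 5.17% of them. In code 1 of the culture *Tnmd* had 16 and 42 UMIs, too few to be compared. It held in both libraries for the homeobox factor *Mkx*, a regulator of tendon collagen, with a ratio of 7.51 in the tail (3.87 to 14.6, from 21 and 20 UMIs) and 0.709 in the culture (0.515 to 0.966). It held in the tail for *Fmod*, with 4.18 there (2.60 to 6.64) and 0.820 in the culture (0.726 to 0.926), and in both for *Thbs4*, a thrombospondin of tendon matrix, with 2.95 and 2.02. For this reason no count or median over the lists is given for this split. The tendon regulator *Egr1*, an immediate early gene found in enough cells of each kind, had 0.439 in the tail (0.316 to 0.596) and 1.21 in the culture (0.959 to 1.51). Of the other matrix genes of the culture, *Tnc* had 1.61 (1.45 to 1.78), *Dcn* 0.629 and *Postn* 0.632, against 1.395 (0.861 to 2.17), 0.966 and 0.796 in the tail. In code 2 of the culture, where 3.57% of genes were higher and 3.97% lower, *Tnc* had 2.10 (1.80 to 2.46) and *Thbs2* 0.573.

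Of the cartilage genes, *Col11a1* had 4.08 (3.28 to 5.06) in code 1 of the tail and 0.524 (0.477 to 0.574) in that of the culture, and *Col2a1* 3.07 (2.15 to 4.33) and 0.752 (0.657 to 0.859). *Matn4*, which entered only through the higher kind in each library, had 3.58 and 0.476. *Sox9*, the main regulator of cartilage, was above 1 in both, at 1.11 in the culture (0.911 to 1.35) and 1.41 in the tail (0.753 to 2.48), with intervals that hold 1. Among somite and sclerotome factors, *Meox1* was higher in the culture at 1.98 (1.64 to 2.39), while the others tested there did not pass the fold in either direction. In the tail *Meox1* had 3.58 (2.01 to 6.17) and *Pax1*, a sclerotome marker, 4.68 (3.29 to 6.62), both entered only through the *Scx*-high cells.

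Of the genes for Id inhibitors, *Id2* and *Id3* stood on opposite sides of 1 in the 2 libraries. *Id2* was 2.44-fold higher (2.04 to 2.94) and *Id3* 1.67-fold higher (1.51 to 1.85) in the *Scx*-high cells of the culture, whereas in the tail *Id2* had a ratio of 0.430 (0.272 to 0.649) and *Id3* one of 0.729. *Id1* had 1.16 (0.961 to 1.39) in the culture and 0.776 (0.591 to 1.004) in the tail. *Id4*, with 0.530 in the tail (0.223 to 1.08), entered there only through the *Scx*-low cells and was found in too few culture cells to be compared. The E protein genes stayed within 1.5-fold in both libraries, from 0.899 to 1.30 in the culture and from 0.798 to 0.871 in the tail. The bHLH relative *Twist1* had 0.803 in the culture and 0.495 (0.400 to 0.608) in the tail. *Twist2* had 0.373 (0.183 to 0.681) in the tail, entered only through the *Scx*-low cells, and *Tcf15*, the paraxial mesoderm bHLH factor also called paraxis, had 1.98 (1.47 to 2.69) in the culture, entered only through the *Scx*-high cells.

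**Figure D4:**
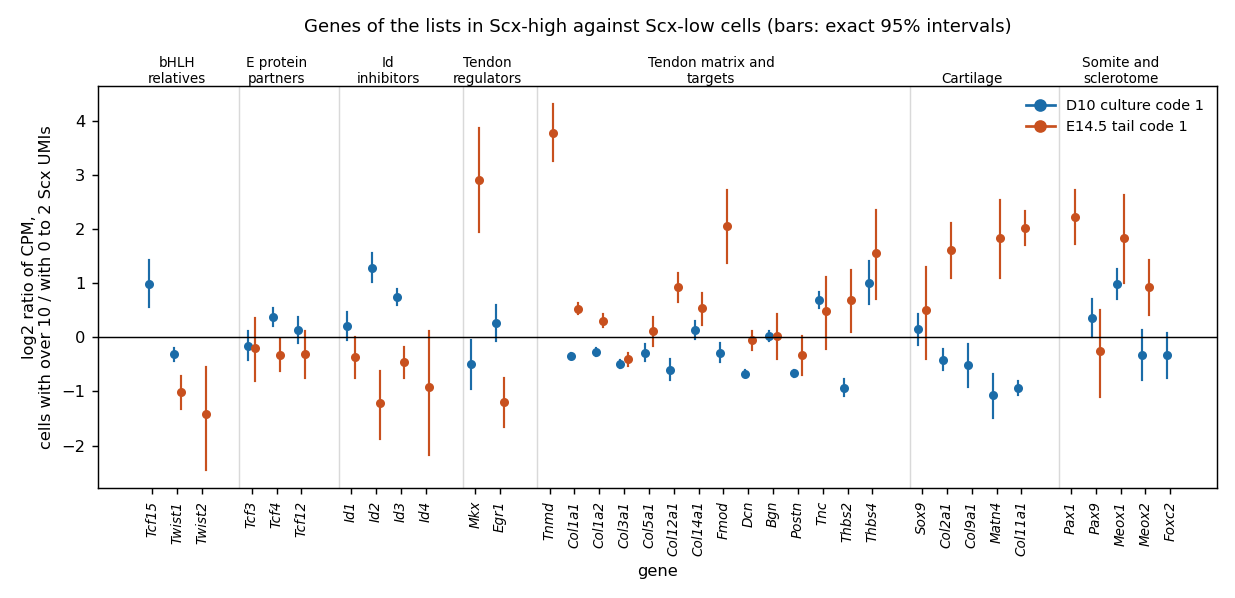
Log2 ratio of CPM between cells with over 10 and cells with 0 to 2 *Scx* UMIs (thinned to 3000 UMIs), in code 1 of the D10 culture (531 and 795 cells) and of the E14.5 tail (73 and 522 cells), for reported genes of the lists found in at least 10% of either kind of cell. Lines are exact 95% intervals. *Col1a1*, *Col12a1*, *Col2a1* and *Col11a1* lie above 0 in the tail and below 0 in the culture, and *Col3a1* lies below 0 in both.

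Between the tendon-like codes as a whole, tail against culture, 19.6% of 5952 genes were at least 1.5-fold higher in the tail and 14% lower. *Scx* was 0.611 times its culture level there (0.599 to 0.622) and ScxGFP 0.848 times (0.757 to 0.9497). The Id inhibitors *Id1*, *Id2* and *Id3* were higher in the tail, *Id1* most at 357 against 119 CPM, a ratio of 3.01 (2.85 to 3.18). Of the E protein genes *Tcf4* at 1.96 and *Tcf12* at 1.88 were higher and *Tcf3* at 1.28 did not pass the fold. From somite-like cells of D6 PM to tendon-like cells of the culture, with 17.9% of 5849 genes higher and 20.4% lower, the matrix genes found in at least 10% of both kinds of cells were *Col1a1* at 18.7, *Col1a2* at 9.55, *Col12a1* at 3.499, *Col5a1* at 2.95 and *Col3a1* at 2.31. *Tcf12* was lower at 0.263 (0.249 to 0.277), *Id1*, *Id2* and *Id3* were higher at 1.94, 1.99 and 3.16, and *Tcf15* was lower at 0.424 (0.383 to 0.471).

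In D6 PM *Scx* lay in few cells, so the 23 cells with at least 10 *Scx* UMIs were looked at by themselves, a choice made after their values were seen. They held 538 of 1096 *Scx* UMIs (49.1%) and 19 of 35 ScxGFP UMIs, and 14 of them had a ScxGFP UMI. They were not called doublets and shared no barcode with the other libraries. By code, 11 lay in endoderm-like code 1, where they held 59.5% of the *Scx* UMIs, 5 in pluripotent-like code 2 and 7 in somite-like code 4, where they held 33.1%. The cells were chosen on UMIs that had not been thinned. Their median depth was 6904, 9121 and 14344 UMIs in codes 1, 2 and 4, against 7406, 11208 and 7709 over all cells of these codes. The 7 somite-like cells had 348 CPM of *Meox1* against 184 CPM in the other cells of their code, a ratio of 1.89 (1.35 to 2.59). *Pax3* had a ratio of 2.81 (1.19 to 5.69), the intervals of *Tcf15* at 1.44, *Uncx* at 0.974, *Meox2* at 0.804 and *Foxc2* at 0.522 hold 1, *Tbx6* had no UMI, and *Twist1* was lower at 0.613 (0.435 to 0.840). These cells also held 16.2 times the level of *T* (brachyury, a gene of early mesoderm and notochord; 6.32 to 37.1, from 8 and 25 UMIs). Of matrix genes, *Col3a1* at 0.547 (0.409 to 0.717) and *Col1a2* at 0.574 (0.313 to 0.967) were lower in them. *Col1a1* had 0.576 (0.275 to 1.06), *Thbs2* 1.88 (0.0458 to 11.4), and *Dcn* and *Postn* no UMI. Of proliferation genes, *Mki67* had no UMI, *Cenpf* 0.0950 and *Ube2c* 0.0398, whereas the 5 cells of code 2 had 2.33, 2.13 and 2.06. The 11 cells placed in code 1 are described here by *Sox17* alone among the endoderm genes, so no cell type is read from it. They held 2 UMIs of the endoderm gene *Sox17*, 24.3 against 522 CPM in the other cells of that code, a ratio of 0.0465 (0.00563 to 0.168). *T* was 7.84-fold higher in them (3.72 to 14.6). Of smooth muscle genes, *Acta2* was 14.95-fold higher (9.24 to 23.0) and *Tagln* 2.98-fold higher (1.53 to 5.23), *Myl9* had 1.44 (0.174 to 5.24) and *Cnn1* no UMI. Of matrix genes, *Col1a1* was 36.6-fold higher (18.1 to 67.9, from 12 and 72 UMIs), *Dcn* 23.7-fold (6.14 to 66.1, from 4 and 37 UMIs) and *Col5a1* 9.71-fold (3.09 to 23.3), and *Col1a2* had 3.03 (0.621 to 8.99). *Col3a1* and *Postn* had no UMI, which allows ratios of up to 20.7 and 3.28. Of somite genes, *Meox1* and *Tbx6* had ratios of 9.02 (1.82 to 27.4) and 24.4 (4.74 to 79.3), from 3 UMIs each, *Tcf15* had 1.25 (0.258 to 3.69), and *Meox2*, *Foxc2* and *Pax3* had no UMI, the last at 38.2 CPM in the other cells of the code. Of 7 pluripotency genes, the 5 cells of code 2 held no UMI of *Nanog* and *Utf1*, at 328 and 390 CPM in the other cells of that code, and had ratios of 0.269 for *Pou5f1*, 0.0587 for *Dppa5a* and 0.0355 for *Sox2*. *Zfp42* at 0.558 (0.181 to 1.31) and *Esrrb* at 0.600 (0.0725 to 2.18) had intervals that hold 1.

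Across the 27 codes with at least 50 cells, ScxGFP had a Pearson r of 0.91 with *Scx* on the log2(CPM + 1) scale. The 5 genes most like *Scx* among 8459 genes with at least 50 CPM in a code were *Fgf18*, a secreted growth factor, at 0.88, *Col11a1* at 0.85, the elastic fibre gene *Mfap4* at 0.85, the opioid precursor *Penk* at 0.84 and *C630043F03Rik* at 0.84. *Fgf18* stood at 153, 131 and 117 CPM in codes 1, 2 and 4 of the culture, at 62.0, 23.6 and 38.4 CPM in those of the tail, and at 0 to 5.60 CPM in D6 PM. The 5 most like ScxGFP were *Gas2* at 0.88, *Col9a2* at 0.86, *AI646519* at 0.86, *Angptl1* at 0.84 and *C630043F03Rik* at 0.84. Codes of a library share its depth and preparation, codes had been formed by the authors from the expression of the same cells, and these values describe likeness over 27 points only. Of the lists, tendon matrix genes went from 0.48 for *Bgn* to 0.81 for *Col14a1*, and cartilage genes from 0.42 for *Sox6* to 0.85 for *Col11a1*. Tendon regulators went from -0.07 for *Eya2* to 0.77 for *Mkx*, bHLH relatives from -0.06 for *Hand1* to 0.68 for *Twist1*, Id inhibitors from 0.36 to 0.54 and E protein genes from 0.27 to 0.38.

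*Scx* lies inside the gene *Bop1*, on the other strand, with *Mroh1* and *Hsf1* as nearest genes in the GRCm38.p6 RefSeq table. Whether counting used strand is not given, so reads of *Bop1* over *Scx* cannot be told from reads of *Scx* by the tables. *Bop1*, a ribosome assembly factor, was at 0 to 59.1 CPM over the 27 codes. It stood at 36.6 CPM in code 1 of the culture, where *Scx* was at 2410 CPM, and at 42.3 CPM in code 3, where *Scx* was at 70.7 CPM. In D6 PM code 2, *Bop1* was at 34.8 CPM and *Scx* at 20.8 CPM. *Hsf1* was at 0 to 38.2 CPM and *Mroh1* at 0 to 52.2 CPM.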

How the data were processed

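The tables deposited by the authors hold whole UMI counts per gene and cell, with a cluster code per cell. Cells had been filtered by the authors on mitochondrial share and on extremes of genes or UMIs. The submitters' processing notes name Cell Ranger and Seurat 3.0, and the genome build of the single-cell counts is not given in the sources used here. No cell was removed here. CPM was taken from UMIs summed over a code. For shares, joint detection and splits of cells, each cell was thinned without replacement to 3000 UMIs, which left out 1157 culture, 100 tail and 1006 D6 PM cells. Scrublet in Scanpy 1.11.5, at an expected rate of 0.06, called 116, 9 and 81 doublets, which were kept and left out as an alternative. The 9 tail calls are 0.439% of its cells.

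Intervals were exact 95% intervals (Poisson for CPM, conditional binomial for ratios, Clopper-Pearson for shares) from SciPy 1.17.1 under Python 3.11.15 with NumPy 2.4.6, and plots were made with matplotlib 3.10.9. A gene was tested between kinds of cells when found in at least 10% of either kind, and called at 1.5-fold. Genes were named when they belonged to fixed lists (bHLH relatives, E proteins, Id inhibitors, tendon regulators, tendon matrix, cartilage, somite), lay next to *Scx*, were among the 5 most like *Scx* or ScxGFP, or had the 5 largest ratios in each direction in code 1 with at least 100 UMIs. Members and lists were chosen with earlier results of these data known. The split and likeness steps were checked on simulated data. Alternatives changed the thinning depth, the cells, the CPM total, the fold and the measure of likeness. One gene of the tendon regulator list is not reported here.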

Additional observations from a re-analysis of the deposited data

How the results depend on the processing

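Of the recomputed values and counts that answer a comparison, 66 stayed close to the reported value and 42 moved, as given here. The *Scx* level of the culture was 1487 CPM without doublets, 1614 CPM without mitochondrial and ribosomal protein genes in the total and 1709 CPM as a mean of cells. That of the tail was 1013 CPM without cells under 1000 genes, 1055 CPM without those genes in the total and 939 CPM as a mean of cells, and that of D6 PM 24.2 and 24.9 CPM under the last 2 settings. Without the cell with the most *Scx* UMIs, a setting also added after seeing the data, the tail was at 924 CPM and D6 PM at 19.5 CPM. ScxGFP was 35.9 CPM in the culture and 33.0 CPM in the tail without those genes, and 38.1 CPM in the culture as a mean of cells. The share of cells with a *Scx* UMI, thinned to 2000 UMIs, to 5000 UMIs and not thinned, was 62.2%, 65.4% and 71.4% in the culture, 25.6%, 32.2% and 41.4% in the tail and 2.17%, 4.17% and 5.48% in D6 PM, and 30.6% in the tail without cells under 1000 genes. For ScxGFP it was 6.44%, 11.2% and 13.2% in the culture and 4.26%, 8.36% and 13.99% in the tail, and 0.0953% at 2000 UMIs and 0.504% unthinned in D6 PM. ScxGFP in code 1 cells with over 10 *Scx* UMIs was 263, 131 and 99.4 CPM in the culture under the same 3 settings, and 371 CPM at 2000 UMIs and 175 CPM unthinned in the tail, where a fixed number of UMIs picks other cells at each depth. Genes that differed by the reporter in code 1 of the culture numbered 30 higher and 18 lower without thinning, and 4 and 2 at 2-fold, against 50 and 77 as reported, and the cause of the turned balance was not tested. The tail to culture ratio of ScxGFP per 100 *Scx* was 1.53 in code 4, and in bins of all UMIs, which hold different *Scx* levels in each library, 1.19 with 21 to 50 *Scx* UMIs (0.969 to 1.45), 1.30 with 51 to 100 (1.09 to 1.55) and 1.502 with 100 or fewer. These settings were chosen after seeing the data, and in thinned cells of codes 1, 2 and 4 with over 10 *Scx* UMIs the tail's 2.74 was below the culture's 2.92. Of the 5 genes most like *Scx*, 2 were kept by Spearman's rho and 2 over the codes of culture and tail alone, and of those most like ScxGFP 3 and 2. No paired analysis was possible because each group holds 1 library, and no library could be left out. ScxGFP is sparse, so that its codes with few UMIs cannot be ordered at this depth.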

Other observations

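The tail library held cells of embryos of both sexes, by UMIs of Y-linked genes and of *Xist*. The 1389 cells with a Y-linked and no *Xist* UMI had *Scx* at 866 CPM and 3.18 ScxGFP UMIs per 100 *Scx* UMIs (2.93 to 3.45). The 290 cells with a *Xist* and no Y-linked UMI had *Scx* at 1796 CPM and 2.89 per 100 (2.53 to 3.29), so that the intervals of the reporter ratio overlapped. A further 303 cells had neither kind of UMI, with *Scx* at 232 CPM and 4.32 per 100 (2.71 to 6.54), and 70 cells held both kinds. The mix of cell types was not matched between these cells, and the number of embryos is not given in the sources used here.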
